A study of Mus musculus with 12 samples.

Results

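The TNF receptor family genes measured here were Tnfrsf21, Tnfrsf1a, Tnfrsf1b, Tnfrsf10b, Tnfrsf11b, Tnfrsf12a, Tnfrsf19, Fas and Ngfr, which are 9 of the 39423 genes in the deposited tables and 9 of 28 receptors of the family that were looked up by name. They were chosen by gene name with their levels in the 4 conditions already known, so these levels and the differences between conditions are given as a description, without a test. All cells were 3T3-L1, a mouse preadipocyte line, and all had been treated with MDI, also written DMI, a differentiation mixture that holds insulin, dexamethasone and 3-isobutyl-1-methylxanthine. Cells transfected with a nontargeting siRNA (siCtrl) or with siRNA against PRMT1 (siPRMT1), an arginine methyltransferase, were collected after 24 hours (day 1) and 72 hours (day 3), with 3 libraries in each condition. Knockdown by siRNA is transient and partial, the cells are 1 line, and the sources used here do not name which of the PRMT1 siRNAs was used for sequencing. The labels do not say whether the 3 libraries of a condition came from separate cultures, so p-values measure the spread between these libraries, which may be technical.

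Total counts per library ran from 15116462 to 42357137. Prmt1 was at 82.9 to 91.3 FPKM (fragments per kilobase of gene length, scaled to the total of the library) in siCtrl and 38.6 to 43.8 FPKM in siPRMT1 cells at day 1, and at 111 to 140 FPKM against 62.0 to 71.7 FPKM at day 3. On the second principal component of all genes, which held 4.97% of the variance, siCtrl replicate 3 of day 1 stood apart at -40.7. The other 11 libraries lay between -14.4 and 16.3. Some of the differences that use this replicate are therefore also given without it. The 7 preadipocyte markers summed to 875 to 906 FPKM in siCtrl and 814 to 827 FPKM in siPRMT1 cells at day 1, and to 240 to 267 FPKM and 278.5 to 333 FPKM at day 3. The 7 adipocyte markers summed to 19.7 to 26.7 FPKM and 13.7 to 19.0 FPKM at day 1, and to 2101 to 2359 FPKM and 1665 to 1816 FPKM at day 3. The preadipocyte markers did not all follow their sum. At day 1 the means of Pdgfra, Dlk1, Ly6a and Col1a1 were lower in siPRMT1 than in siCtrl cells, and those of Thy1, Pdgfrb and Cd34 higher. At day 3 the mean of Dlk1 was lower in siPRMT1 cells and those of the other preadipocyte markers higher. Markers of other cell types were low, with sums of at most 5.72 FPKM over 6 macrophage genes, of which the defining Ptprc had 0 counts in all 12 libraries, 0.88 FPKM over 5 endothelial genes and 0.07 FPKM over 5 T cell genes. In such bulk samples, fewer cells that express a gene and less of its RNA per cell cannot be told apart.

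TNF receptors are membrane proteins with cysteine-rich repeats outside the cell that bind trimeric ligands of the TNF family. Some carry a death domain inside the cell, through which they can assemble a complex with FADD and caspase 8 and start apoptosis, and others bind TRAF adaptors and lead to the transcription factor NF-kB and to MAP kinases. In the adipocyte lineage, TNF signalling is known for its block of differentiation and for its effect on insulin action and lipolysis.

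Of the 28 receptors, Tnfrsf1a and Tnfrsf12a had the highest mean levels over the 12 libraries. Together the 28 genes summed to 319 FPKM ± 24.5 (SD, n = 3) in siCtrl and 324 FPKM ± 11.7 in siPRMT1 cells at day 1, and to 508 FPKM ± 9.93 and 481 FPKM ± 25.6 at day 3. Tnfrsf1a made up 42.2% ± 0.678 (SD, n = 3) of this sum in siCtrl cells at day 1 and 30.1% ± 1.60 at day 3. The share of Tnfrsf12a was 10.6% ± 0.697 at day 1 and 36.5% ± 1.34 at day 3 in siCtrl cells. Tnfrsf21 held 7.49% ± 0.322 of the family sum in siCtrl cells at day 1, and 2.79% ± 0.220 in siPRMT1 cells of the same day. Among the 19 receptors outside the 9 members, Ltbr, the lymphotoxin beta receptor, was highest, with 65.8 FPKM ± 7.25 in siCtrl cells at day 1 and 110 FPKM ± 3.26 at day 3. Eda2r, the receptor of ectodysplasin A2, was next by the mean over all 12 libraries, with 3.50 FPKM ± 0.937 and 3.03 FPKM ± 0.631 in siCtrl cells at day 1 and day 3.

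**Figure D1:**
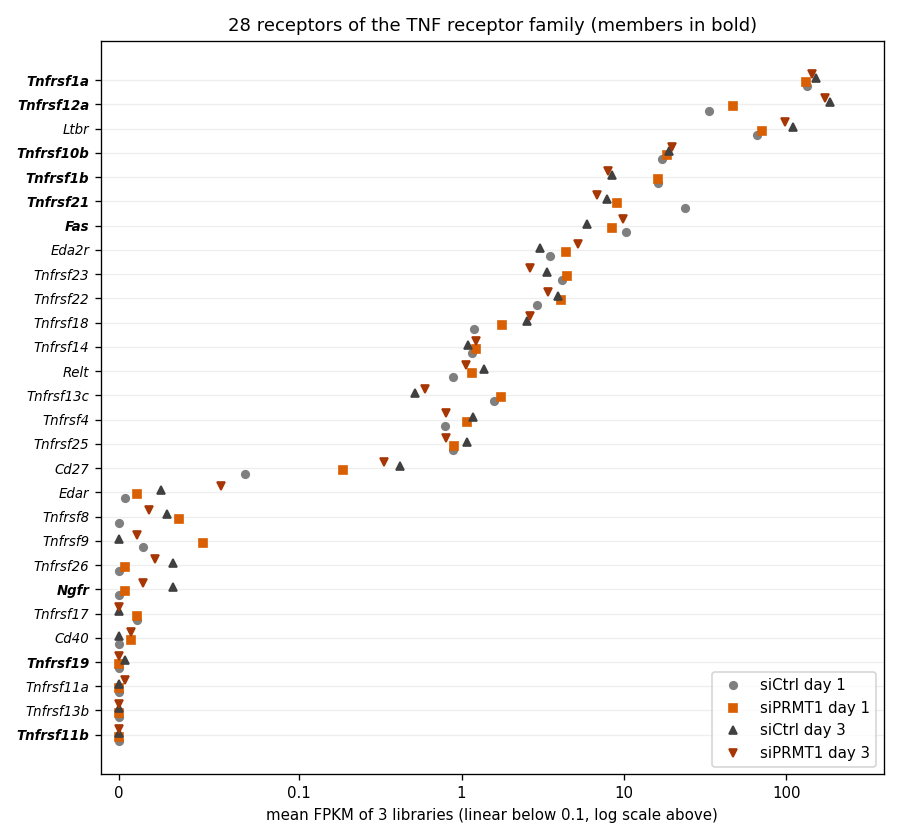
Mean FPKM of 3 libraries (horizontal axis, linear below 0.1 and logarithmic above) of the 28 receptors of the family in the 4 conditions, with the 9 members in bold. Tnfrsf1a and Tnfrsf12a stand at the top, and Tnfrsf11b, Tnfrsf19 and Ngfr lie at or near 0.

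The 250 bases before the start of 7 of the 9 members were found in a table of RefSeq promoters on GRCm38.p6, as 8 windows, since Tnfrsf19 has a pair of starts. Tnfrsf1a had no match to any of the 9 motifs searched, and 6 of the 8 windows held GGGCGG, the GC box bound by SP1, against 32.7% of all 32851 windows. The windows are shown for Tnfrsf21 and Fas, each with a log2 difference past 0.5 between the siRNA groups at 1 of the days, and for Tnfrsf12a, which had the largest difference between days in siCtrl cells, 5′ to 3′ on the gene's strand, with matches to the motifs on either strand in capitals (CCGCCC and TGAGTCA are GGGCGG and TGACTCA read on the opposite strand). They lie at chr17:43016305-43016554 (plus strand) for Tnfrsf21, chr17:23677450-23677699 (minus strand) for Tnfrsf12a and chr19:34290409-34290658 (plus strand) for Fas.
Tnfrsf21: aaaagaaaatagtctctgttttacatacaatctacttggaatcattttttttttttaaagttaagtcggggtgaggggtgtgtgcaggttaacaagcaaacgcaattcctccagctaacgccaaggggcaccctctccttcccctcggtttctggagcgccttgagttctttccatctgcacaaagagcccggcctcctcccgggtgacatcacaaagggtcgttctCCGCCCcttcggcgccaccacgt
Tnfrsf12a: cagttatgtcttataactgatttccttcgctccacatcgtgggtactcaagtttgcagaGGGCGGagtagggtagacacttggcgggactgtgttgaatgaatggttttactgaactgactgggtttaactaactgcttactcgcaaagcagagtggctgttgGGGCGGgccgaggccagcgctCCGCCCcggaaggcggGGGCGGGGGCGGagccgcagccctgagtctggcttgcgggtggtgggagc
Fas: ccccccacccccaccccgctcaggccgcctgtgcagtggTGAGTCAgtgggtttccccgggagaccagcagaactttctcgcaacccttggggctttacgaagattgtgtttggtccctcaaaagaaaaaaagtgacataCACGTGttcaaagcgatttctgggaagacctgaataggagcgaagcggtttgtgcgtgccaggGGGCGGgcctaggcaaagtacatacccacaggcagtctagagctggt

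The window of Tnfrsf12a held 5 GC boxes, of which those that begin 50 and 44 bases before the start adjoin each other. Tnfrsf21 had 1 GC box, 23 bases before its start on the opposite strand. Fas had 1 GC box, 1 AP-1 site (TGACTCA, in 4.46% of all windows) and 1 E-box (CACGTG, in 6.02%). The first 20 bases after the RefSeq start were matched in 1 GENCODE transcript each for Tnfrsf21 and Tnfrsf12a. For Fas and the starts of Tnfrsf19 they were matched in 0 transcripts, so the starts of these windows lack that support. The other motifs, searched on both strands with overlaps allowed, had no match in the windows of the members. They were TGACGTCA for the cyclic AMP response element (in 1.55% of all windows), GGANTTTCC for the core of an NF-kB site (1.07%), AGAACA for the half-site of the glucocorticoid receptor (16.1%), TTGCNNAA for C/EBP (9.56%), CCAAT (33.8%) and TATAAA (12.4%).

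Tnfrsf21, death receptor 6, carries a death domain and is known from neurons and T cells. The gene lies on chromosome 17 of GRCm38 from 43016555 to 43089188. Its level was 22.8, 22.0 and 27.0 FPKM in siCtrl replicates 1 to 3 of day 1, and 9.85, 8.28 and 8.93 FPKM in siPRMT1 cells of that day. At day 3 it was 7.76, 8.41 and 7.57 FPKM in siCtrl and 6.30, 6.99 and 7.31 FPKM in siPRMT1 cells. All 3 siCtrl libraries of day 1 lay above the other 9 libraries, siPRMT1 day 1 overlapped siCtrl day 3, and siPRMT1 day 3 lay below siCtrl day 3 without overlap. These levels rest on 461 to 3498 counts per library. The log2 difference of siPRMT1 from siCtrl was -1.46 (SE 0.103) at day 1, a 2.74-fold lower level, and -0.21 (SE 0.0886) at day 3. From day 1 to day 3, Tnfrsf21 was 3.18-fold lower in siCtrl cells (log2 difference -1.67, SE 0.111). The difference between the knockdown effects of the days, day 3 minus day 1, was 1.27 (SE 0.143) on the log2 scale. Without siCtrl replicate 3 of day 1, the highest library, the day 1 difference was -1.37 and that between siCtrl days -1.58. The preadipocyte and adipocyte marker sums, given above, were both lower in siPRMT1 than in siCtrl cells at day 1, and their part in the difference of Tnfrsf21 was not tested.

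Fas, the death domain receptor of Fas ligand, lies on chromosome 19 from 34290659 to 34327775. It stood at 10.7, 9.91 and 10.2 FPKM in siCtrl replicates 1 to 3 and at 7.22, 9.04 and 8.95 FPKM in siPRMT1 replicates of day 1. The day 3 libraries gave 6.54, 4.58 and 6.61 FPKM in siCtrl and 11, 10.3 and 8.55 FPKM in siPRMT1 cells. The groups did not overlap at either day, with siPRMT1 below siCtrl at day 1 and above it at day 3. The conditions ordered by mean level were siCtrl day 1, siPRMT1 day 3, siPRMT1 day 1 and siCtrl day 3, of which siCtrl day 3 alone was separate from its neighbour. The log2 difference of siPRMT1 from siCtrl was -0.34 (SE 0.107) at day 1 and 0.73 (SE 0.131) at day 3, the latter a 1.66-fold higher level. In siCtrl cells, Fas was 1.81-fold lower at day 3 than at day 1 (log2 difference -0.86, SE 0.141). The knockdown effect at day 3 minus that at day 1 was 1.09 (SE 0.189) on the log2 scale. Counts of Fas ranged from 136 in siCtrl replicate 2 of day 3, the shallowest library, to 886 in siCtrl replicate 1 of day 1, the deepest. At day 3, the sum of adipocyte markers was lower and that of preadipocyte markers higher in siPRMT1 than in siCtrl cells, as given above, and their part in the difference of Fas was not tested.

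Tnfrsf1a (TNFR1), the main death domain receptor of TNF, lies on chromosome 6 from 125349723 to 125362483 and was the most abundant member at day 1. Its level was 126, 130 and 149 FPKM in siCtrl and 137, 127 and 134 FPKM in siPRMT1 cells at day 1. It was 148, 149 and 162 FPKM in siCtrl and 137, 149 and 150 FPKM in siPRMT1 cells at day 3. Neighbouring conditions in the order of the means overlapped throughout. The log2 difference of siPRMT1 from siCtrl was -0.07 (SE 0.0744) at day 1 and -0.08 (SE 0.0687) at day 3, and day 3 differed from day 1 in siCtrl cells by 0.11 (SE 0.0882).

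Tnfrsf10b, the death domain receptor of TRAIL in the mouse, lies on chromosome 14 from 69767472 to 69784411. Across the 12 libraries it ran from 16.2 FPKM in siCtrl replicate 2 of day 1 to 20.3 FPKM in siPRMT1 replicate 3 of day 3. Its mean was 17.2 FPKM ± 0.937 (SD, n = 3) in siCtrl and 18.4 FPKM ± 0.596 in siPRMT1 cells at day 1, and 19.0 FPKM ± 0.636 and 19.9 FPKM ± 0.380 at day 3. Neighbouring conditions overlapped for this gene too, and its log2 differences lay between 0.04 (SE 0.0716) for the knockdown at day 1 and 0.07 (SE 0.0893) for siCtrl day 3 against day 1.

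Ngfr (p75NTR), the death domain receptor of neurotrophins, was near the limit of detection, on chromosome 11 from 95568818 to 95587698. It had 0 counts in the 3 siCtrl libraries of day 1, 1 count over the 3 siPRMT1 libraries of day 1, 6 counts over the siCtrl libraries of day 3 and 4 over the siPRMT1 libraries of day 3. A library with 0 counts allows a level of up to 3 counts, counting error only, which is 0.0708 CPM (counts scaled to the library total) in the deepest and 0.198 CPM in the shallowest library. No library held more than 3 counts of Ngfr, so no fold change is given for it.

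Tnfrsf12a (Fn14), the receptor of TWEAK, has no death domain and signals through TRAF adaptors. It lies on chromosome 17 from 23675445 to 23677449, and its exons share 80 bases with Hcfc1r1 on the opposite strand. As the strand setting of the counting is not given in the sources used here, reads from these bases cannot be told apart. Tnfrsf12a was at 33.2, 33.8 and 34.0 FPKM in siCtrl and 46.4, 45.2 and 49.0 FPKM in siPRMT1 cells at day 1. The level at day 3 was 181, 196 and 179 FPKM in siCtrl and 167, 178 and 179 FPKM in siPRMT1 cells. Every day 3 library lay above every day 1 library, and siPRMT1 lay above siCtrl at day 1 without overlap, while the groups overlapped in FPKM at day 3. In siCtrl cells the day 3 level was 5.25-fold that of day 1 (log2 difference 2.39, SE 0.0860), the largest difference of any member in any comparison made here. The log2 difference of siPRMT1 from siCtrl was 0.43 (SE 0.0703) at day 1, under the threshold of 0.5 used here, and -0.09 (SE 0.0699) at day 3. The knockdown effect at day 3 minus that at day 1 was -0.50 (SE 0.0938) and, before rounding, fell short of the threshold of 0.5, which it passed in 8 of 12 fits that left out 1 library.

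Tnfrsf1b (TNFR2), the second receptor of TNF, which lacks a death domain, lies on chromosome 4 from 145212368 to 145246870. Its level at day 1 was 14.2, 15.1 and 19.2 FPKM in siCtrl and 16.2, 15.5 and 16.8 FPKM in siPRMT1 cells. At day 3 it was 8.66, 8.52 and 8.15 FPKM in siCtrl and 7.42, 8.19 and 8.38 FPKM in siPRMT1 cells. The days were separate and the siRNA groups overlapped within each day. In siCtrl cells the level was 2.01-fold lower at day 3 than at day 1 (log2 difference -1.01, SE 0.122), or -0.87 on the log2 scale without siCtrl replicate 3 of day 1. The log2 difference of siPRMT1 from siCtrl was -0.05 (SE 0.109) at day 1 and -0.08 (SE 0.0787) at day 3. The former was 0.08 without siCtrl replicate 3.

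Tnfrsf11b (osteoprotegerin), a secreted decoy receptor for the RANK ligand Tnfsf11, lies on chromosome 15 from 54250619 to 54278484 and had 0 counts in all 12 libraries. Tnfrsf19 (TROY), a receptor without a death domain on chromosome 14 from 60963834 to 61046855, had 1 count, in siCtrl replicate 3 of day 3, over all 12 libraries. Neither gene could be compared between conditions at this depth.

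**Figure D2:**
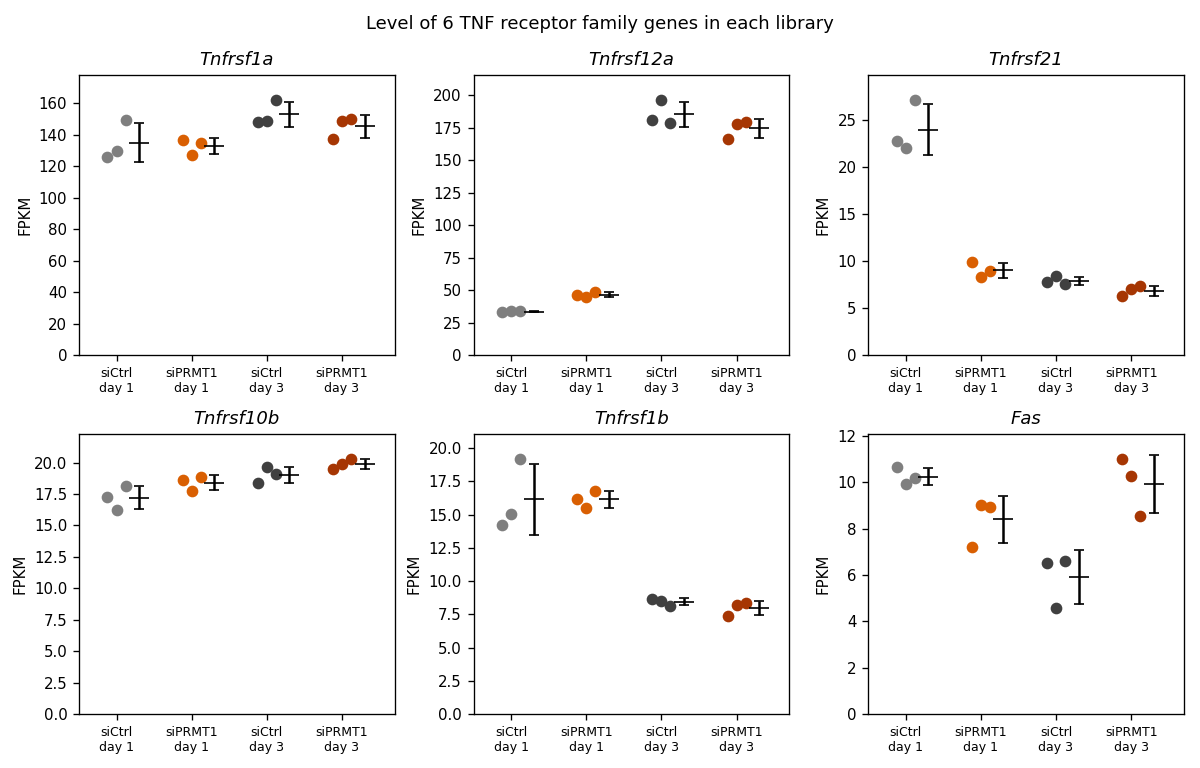
FPKM (vertical axis, from 0) of the 6 members that passed the filter on low counts, with 1 point per library in each of the 4 conditions and the mean ± SD of 3 libraries as a bar beside them. Tnfrsf21 is highest in the siCtrl libraries of day 1 at 22.0 to 27.0 FPKM, Tnfrsf12a is between 167 and 196 FPKM in all day 3 libraries, and Fas is lowest in siCtrl cells at day 3.

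Across all genes, a gene was called where the log2 fold change was past 0.5 in either direction and the p of edgeR's quasi-likelihood test, adjusted by Benjamini-Hochberg, was under 0.05. The filter on low counts left 6 of the 9 members in each comparison, and Tnfrsf11b, Tnfrsf19 and Ngfr did not pass it. The choice of the members used these contrasts, so nothing is read from their counts. In siPRMT1 against siCtrl cells at day 1, 0 members were called higher, against 1.95% of all genes tested, and 1, Tnfrsf21, was called lower, against 1.61%. Groups did not overlap in CPM after TMM normalization for 3 of the 6, against 31.3% of all genes. At day 3, 1 member, Fas, was called higher, against 2.84% of all genes, 0 were called lower, against 3.8%, and 3 did not overlap, against 34.9%, among them Tnfrsf12a, whose groups overlapped in FPKM. In siCtrl cells at day 3 against day 1, Tnfrsf12a was called higher, against 22.7% of all genes. In the same comparison, Tnfrsf21, Tnfrsf1b and Fas were called lower, against 20.4%, and 4 members did not overlap, against 64.5%. The interaction of siRNA and day, which asks whether the knockdown effect differed between the days, was called positive for Tnfrsf21 and Fas, against 4.77% of all genes, and negative for 0 members, against 3.47%. The median log2 fold change of the 6 members was -0.06 at day 1, -0.08 at day 3, -0.39 from day 1 to day 3 in siCtrl cells and 0.03 for the interaction, beside 0.01, 0.01, -0.0042 and 0.02 over all genes tested. These comparisons share siCtrl libraries.

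**Figure D3:**
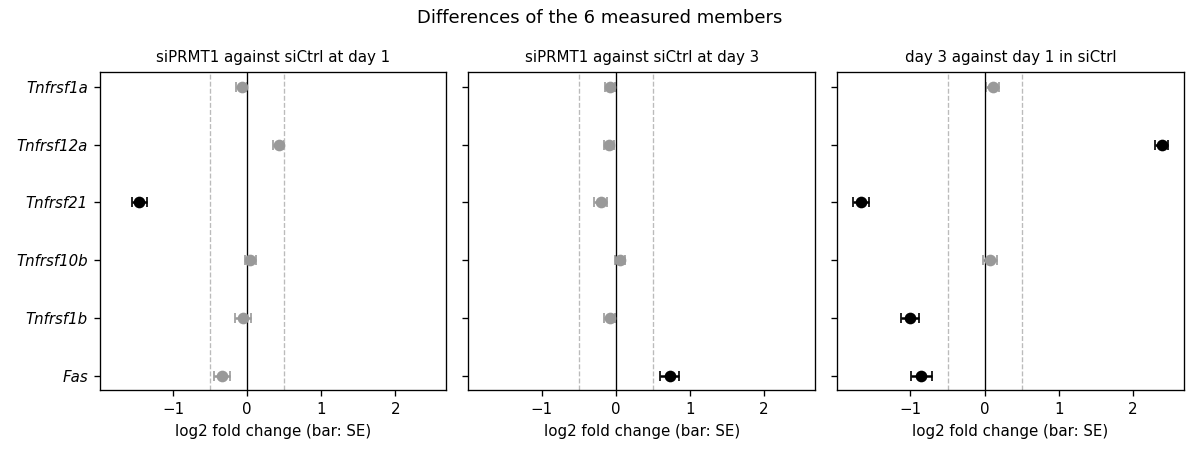
Log2 fold change (horizontal axis, with its SE as a bar) of the 6 measured members in 3 comparisons, with the threshold of 0.5 as dashed lines and called values in black. Tnfrsf21 stands at -1.46 in siPRMT1 against siCtrl cells at day 1, Fas at 0.73 at day 3, and Tnfrsf12a at 2.39 for day 3 against day 1.

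The genes most like 5 of the members over the 12 libraries were found by the root mean square difference of log2 CPM, each centred on its own mean, among the 9324 genes that reached 10 CPM on average. Vgll4 was closest to Tnfrsf1b, with a difference of 0.0454 where Tnfrsf1b itself varied with an SD of 0.518, followed by Sipa1l2 at 0.0855. Hmox1, heme oxygenase 1, was closest to Tnfrsf12a at 0.134 (SD of Tnfrsf12a 1.08), with means of 34.2 FPKM in siCtrl cells at day 1 and 170 FPKM at day 3, and Ldhb followed at 0.154. Snrpe and Anxa1 were closest to Fas at 0.143 and 0.164, against an SD of Fas of 0.371. The nearest genes to Tnfrsf21, Arl6ip1 and Nqo1, stood at 0.338 and 0.346 against an SD of 0.747. Mta2 and Wbp11 were closest to Tnfrsf10b at 0.0318 and 0.039, where Tnfrsf10b itself varied with an SD of 0.0687.

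The rest of the pathway was followed with 7 lists of 140 genes, which were chosen with earlier results of these data known. Their shares beside those of all genes are therefore a description. Of the 140 genes, 108 were tested for the knockdown at day 1 and 106 at day 3. At day 1, 8 of the 108 rose in siPRMT1 cells and 0 fell, and at day 3, 7 of 106 rose and 2 fell. NF-kB target genes made up most of these, with 6 of 18 tested that rose at day 1 and 5 of 16 at day 3. The median log2 fold change of this list was 0.35 at day 1 and 0.32 at day 3, beside 0.01 over all genes at both days. The list does not hold every gene that NF-kB induces. Nfkbia, Tnfaip3 and Birc3, which NF-kB also induces, were in other lists and were not called at either day. Genes of the NF-kB target list can also be induced by other factors, and whether NF-kB activity changed was not tested. Among all genes tested, 1.95% rose and 1.61% fell at day 1, and 2.84% rose and 3.8% fell at day 3.

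Of the NF-kB targets at day 1, the chemokine Cxcl10 rose 3.33-fold, from 1.62 FPKM ± 0.232 in siCtrl to 5.68 FPKM ± 0.779 (SD, n = 3) in siPRMT1 cells (log2 fold change 1.74, SE 0.165, adjusted p = 0.00302, edgeR's quasi-likelihood test). Fold changes given here are edgeR's estimates after TMM normalization, which FPKM lack, so they need not equal the ratio of the FPKM beside them. Ccl5, a chemokine that attracts T cells, rose 2.73-fold (log2 fold change 1.45, SE 0.162, adjusted p = 0.00354, edgeR). Interleukin 6 (Il6) rose 2.25-fold (adjusted p = 0.0135, edgeR), Ptgs2, the inducible cyclooxygenase of prostaglandin synthesis, 1.77-fold (adjusted p = 0.0312) and the chemokine Ccl7 1.49-fold (adjusted p = 0.0127). The calls of Cxcl10 and Ccl5 held with any library left out. Ccl7 was not called without any 1 of the siPRMT1 libraries, Il6 without siCtrl replicate 2 or siPRMT1 replicate 2 or 3, and Ptgs2 without any 1 library other than siCtrl replicate 3. The number of NF-kB targets that rose at day 1 was 3 without siCtrl replicate 2 or siPRMT1 replicate 1, 2 without siPRMT1 replicate 2 or 3, and 6 without siCtrl replicate 3.

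At day 3, Vcam1, the adhesion molecule that binds leukocytes, rose 1.98-fold, from 11.6 FPKM ± 0.748 to 23.1 FPKM ± 0.745 (SD, n = 3; log2 fold change 0.99, SE 0.0746, adjusted p = 1.01e-06, edgeR's quasi-likelihood test). The chemokine Ccl2, which attracts monocytes, rose 2.38-fold (log2 fold change 1.25, SE 0.125, adjusted p = 1.22e-05, edgeR), Ccl5 2.64-fold (adjusted p = 4e-04) and Ccl7 1.59-fold (adjusted p = 7.68e-04). Cxcl10 rose 1.94-fold (adjusted p = 0.0164, edgeR) and lost its call without siCtrl replicate 1 or siPRMT1 replicate 3, and with DESeq2. At day 1, Vcam1 stood at 43.2 FPKM ± 0.881 in siCtrl and 43.0 FPKM ± 2.31 in siPRMT1 cells (log2 fold change -0.06, SE 0.0669).

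**Figure D4:**
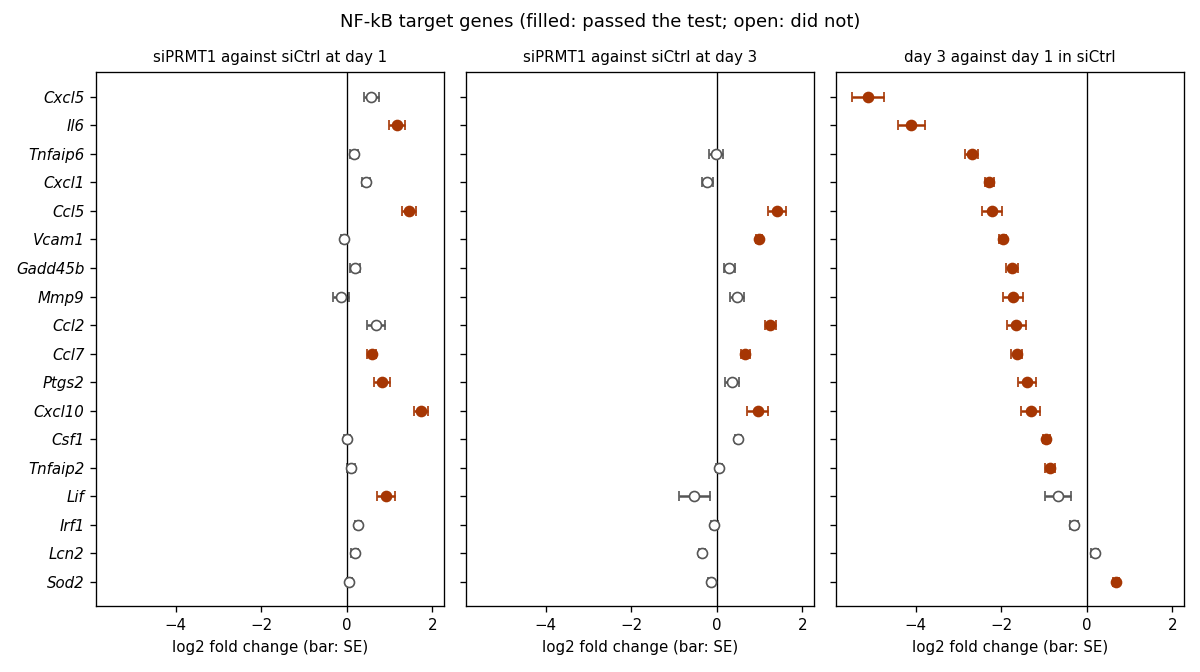
Log2 fold change (horizontal axis, with its SE as a bar) of the NF-kB target genes that passed the filter on low counts in 3 comparisons. Filled points passed the test and open points did not, with 6 of 18 higher at day 1 of knockdown, 5 of 16 higher at day 3, and 14 of 18 lower from day 1 to day 3 in siCtrl cells.

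Of 7 ligands tested for the knockdown, 1 rose at day 1 and 1 fell at day 3, where 1.95% and 3.8% of all genes tested did so. Bdnf, a neurotrophin whose precursor binds Ngfr, rose 1.52-fold at day 1 (log2 fold change 0.61, SE 0.118, adjusted p = 0.0219, edgeR's quasi-likelihood test), a call lost without siCtrl replicate 2 or any 1 of the siPRMT1 libraries. Tnfsf13 (APRIL), a ligand of B cell receptors of the family, fell 2.50-fold at day 3 (log2 fold change -1.32, SE 0.199, adjusted p = 3.53e-04, edgeR), at a low level of 1.67 FPKM ± 0.268 in siCtrl cells. The ligands with the highest mean over the 12 libraries were Tnfsf9, the ligand of 4-1BB, at 7.48 FPKM, and Bdnf at 2.62 FPKM. The ligands of the measured members were looked up after their values were seen. Tnf had 0 counts in all 12 libraries, Fasl at most 2 counts and Tnfsf10 (TRAIL) at most 1 count in any library. Tnfsf12 (TWEAK), the ligand of Tnfrsf12a, was at 2.69 FPKM ± 0.911 in siCtrl cells at day 1 and 1.86 FPKM ± 0.200 at day 3.

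Of the other receptors of the family, 0 of 10 tested were called at day 1, and 1 of 11 was called higher at day 3. This was Eda2r, which rose 1.70-fold (log2 fold change 0.77, SE 0.130, adjusted p = 8.75e-04, edgeR's quasi-likelihood test). A gene that was not called may still have changed, and the median log2 fold change of these receptors was 0.17 at day 1 and -0.21 at day 3. Among all genes tested, 1.95% were called higher and 1.61% lower at day 1, and 2.84% higher and 3.8% lower at day 3. Of the adaptors, kinases and ubiquitin enzymes, 0 of 30 were called at day 1 and 1 of 29 at day 3. The latter was Sort1, sortilin, a coreceptor of Ngfr and a sorting receptor of GLUT4 vesicles. Sort1 fell 1.53-fold (log2 fold change -0.62, SE 0.0657, adjusted p = 1.84e-05, edgeR). The 10 NF-kB subunits and inhibitors and the 20 caspases and death regulators had 0 calls at either day, with medians of 0.19 and -0.11 on the log2 scale at day 1 and -0.09 and 0.01 at day 3. Of 13 p53 targets tested, 1 rose at each day. Sesn2, a stress-induced inhibitor of mTORC1, rose 1.47-fold at day 1 (adjusted p = 0.0147, edgeR) and lost its call without any 1 library other than siCtrl replicate 3. Plk2, a polo-like kinase, rose 1.87-fold at day 3 (log2 fold change 0.91, SE 0.0809, adjusted p = 4.23e-06, edgeR). With no threshold on the fold change, 3 list genes fell at day 1, and without siCtrl replicate 3 of day 1, 13 rose and 0 fell.

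In siCtrl cells from day 1 to day 3, 21 of 109 list genes tested rose (19.3%) and 31 fell (28.4%). Of all genes tested, 22.7% rose and 20.4% fell. Of the 7 lists, NF-kB target genes had the largest share that fell, with 14 of 18 lower and 1 higher and a median log2 fold change of -1.64, beside -0.0042 over all genes. Tnfaip6, a secreted hyaluronan-binding protein, fell 6.46-fold (adjusted p = 2.48e-07, edgeR's quasi-likelihood test), the chemokine Cxcl1 4.84-fold (adjusted p = 1.32e-07) and Vcam1 3.91-fold (adjusted p = 5.7e-08). Of 10 NF-kB subunits and inhibitors, 6 fell and 1 rose, among them Bcl3, a nuclear IkB protein, 5.45-fold lower, Nfkbie, an inhibitor of NF-kB, 2.47-fold lower, and the precursor gene Nfkb2, 1.84-fold lower (adjusted p = 1.38e-06, 2.04e-05 and 8.83e-05, edgeR). Nfkbia, Tnfaip3 and Birc3, which NF-kB also induces, did not all go with its target list. In siCtrl cells the mean of Nfkbia was 70.2 CPM at day 1 and 89.6 CPM at day 3. It was 9.79 and 19.5 CPM for Tnfaip3, and 20.7 and 15.7 CPM for Birc3. Whether NF-kB activity changed between the days was not tested. The sum of preadipocyte markers fell and that of adipocyte markers rose over the same days, and their part in these changes was not tested.

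Over the same days in siCtrl cells, 6 of 30 adaptors, kinases and ubiquitin enzymes rose and 2 fell. The share that rose was 20% here, 25% of the death regulators and 30.8% of the p53 targets, beside 22.7% of all genes tested. The share that fell was 6.67%, 20% and 15.4%, beside 20.4%. Sort1 rose 35.4-fold, from 0.443 FPKM ± 0.0153 to 16.6 FPKM ± 0.0656 (log2 fold change 5.15, SE 0.102, adjusted p = 8.84e-10, edgeR's quasi-likelihood test), Traf4 rose 2.25-fold and Tnfaip3 (A20), a ubiquitin-editing inhibitor of NF-kB, rose from 9.79 CPM to 19.5 CPM (adjusted p = 1.97e-05 and 2.95e-05, edgeR). Of 20 caspases and death regulators, 5 rose and 4 fell. Cytochrome c (Cycs) rose 2.59-fold, the necroptosis effector Mlkl 2.50-fold, and the BH3-only gene Bcl2l11 (Bim) fell 2.39-fold (adjusted p = 8.14e-07, 3.94e-06 and 1.62e-06, edgeR). Among 13 p53 targets, 4 rose and 2 fell, with Tigar, a regulator of glycolysis, 2.87-fold higher, the cell cycle inhibitor Cdkn1a 1.86-fold higher and Plk2 4.05-fold lower (adjusted p = 3.3e-06, 6.33e-06 and 9.55e-08, edgeR).

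Of the other receptors, 3 of 10 rose and 1 fell from day 1 to day 3 in siCtrl cells, where 22.7% of all genes tested rose and 20.4% fell. Ltbr rose 1.59-fold (adjusted p = 1.9e-04, edgeR's quasi-likelihood test), Tnfrsf18 (GITR) 2.11-fold (adjusted p = 0.00568) and Tnfrsf13c, the BAFF receptor, fell 3.29-fold (adjusted p = 7.13e-05), the last from 1.58 FPKM ± 0.162 to 0.520 FPKM ± 0.101. Of 8 ligands tested, 1 rose and 2 fell. Tnfsf13 rose 7.06-fold (adjusted p = 1.29e-05, edgeR) from a low level at day 1 of 0.233 FPKM ± 0.0709, with 31 counts over the 3 libraries. Bdnf fell 1.83-fold (adjusted p = 1.52e-04, edgeR). Tnfsf11, the RANK ligand, fell from 0.297 FPKM ± 0.0306 to 0.0133 FPKM ± 0.0231 (adjusted p = 2.75e-04, edgeR), the latter from 2 counts over the 3 libraries.

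The interaction of siRNA and day passed the test for 15 of 110 list genes, 6 with a higher (5.45%) and 9 with a lower (8.18%) knockdown effect at day 3 than at day 1. Of all genes tested, the interaction was called positive for 4.77% and negative for 3.47%. By list, it was positive for 2 and negative for 2 of 18 NF-kB targets, positive for 1 and negative for 2 of 10 NF-kB subunits and inhibitors and positive for 2 of 20 caspases and death regulators. It was positive for 1 and negative for 2 of 13 p53 targets, negative for 2 of 11 other receptors and 1 of 8 ligands, and called for 0 of 30 adaptors, kinases and ubiquitin enzymes. The smallest p was that of Vcam1, whose knockdown effect was 1.07 (SE 0.0942) higher on the log2 scale at day 3 than at day 1 (adjusted p = 8.19e-06, edgeR's quasi-likelihood test).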

How the data were processed

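mRNA of 12 libraries of 3T3-L1 cells was sequenced, 3 in each of 4 conditions. Per the submitters' processing notes and the methods, reads were filtered with cutadapt 1.11 and mapped with HISAT2 2.1.0 to mm10, and RSEM 1.2.6 is named without a role. The counting tool and strand setting are not given in the sources used here. The authors deposited whole-number counts per gene without normalization, and FPKM values, which the authors scaled by gene length and library total. Recomputed FPKM differed from these by at most 0.005. Replicates differed by more than counting error, with a chi-square per gene of 4.14 to 50.6 over 12 pairs of libraries.

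Counts were tested with edgeR 4.0.16 (quasi-likelihood test, TMM normalization, filterByExpr) in R 4.3.3, for siPRMT1 against siCtrl at each day, siCtrl day 3 against day 1, and the interaction over all 12 libraries. P-values were adjusted over all genes tested by Benjamini-Hochberg, and each SE was taken from the fold change and its F statistic (absolute log2 value over root F). CPM and fold changes are after TMM normalization, while FPKM are scaled to the library total without it. The script was tested on simulated data with known changes. Genes of 7 pathway lists were named where called for the knockdown (at most 5 a list and day, by smallest p), with the 3 smallest p per list for the days in siCtrl, at most 5 for the interaction, and the 2 highest ligands and other receptors. The members, lists and tests were chosen with earlier results of these data known. Alternatives were DESeq2 1.42.0, RLE size factors, a minimum of 10 counts in each library, no filter on low counts, a replicate block, no threshold on the fold change, all 12 libraries in 1 model, each library left out, and CPM in place of FPKM. Promoter windows come from a RefSeq table. The genes most like Tnfrsf1a are not reported here.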

Additional observations from a re-analysis of the deposited data

Results flagged for a closer look

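The difference of the knockdown effect between the days is given here on the log2 scale, as day 3 minus day 1. It was fitted over all 12 libraries. The effects of each day that follow it were fitted on the libraries of that day alone, so they need not subtract to it exactly. For Tnfrsf21 it was 1.27 (SE 0.143), from effects of -1.46 at day 1 and -0.21 at day 3, and for Fas 1.09 (SE 0.189), from -0.34 and 0.73. Both are members chosen with these levels known, so these are descriptions without a test.

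Of the 15 list genes called for the interaction, those 10 are given that the naming rule picked in any comparison. Among the NF-kB genes, the difference was 1.07 for Vcam1 (adjusted p = 8.19e-06, edgeR's quasi-likelihood test), from effects of -0.06 at day 1 and 0.99 at day 3. It was 0.51 for Csf1 (adjusted p = 0.00286, edgeR), the growth factor of macrophages, from 0.0036 and 0.50, and -0.65 for Cxcl1 (adjusted p = 0.0164), from 0.44 and -0.22. Csf1 lost its call without siCtrl replicate 2 or 3 or siPRMT1 replicate 2 of day 1, without siCtrl replicate 3 or siPRMT1 replicate 2 of day 3, and with at least 10 counts in every library. Bcl3 had a difference of -0.77 (adjusted p = 0.0411, edgeR), from 0.38 and -0.41, and Nfkbie of 0.53 (adjusted p = 0.0351), from -0.05 and 0.47. The receptor Tnfrsf22, which has close tandem copies whose reads could be split by the counting, had a difference of -0.63 (adjusted p = 0.00403, edgeR), from 0.44 and -0.21.

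Of the death regulators and p53 targets, the difference was 0.63 for Mcl1 (adjusted p = 0.00241, edgeR), an inhibitor of apoptosis, from -0.36 and 0.24, and 0.58 for Sesn1 (adjusted p = 0.00352), from -0.33 and 0.23. It was -0.67 for Sesn2 (adjusted p = 0.0043, edgeR), from 0.56 and -0.13, and -0.54 for Tigar (adjusted p = 0.0174), from 0.38 and -0.19.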

How the results depend on the processing

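No called log2 fold change of a member, or of a list gene in a comparison that named it, turned its direction under any alternative. The called interactions of Cxcl1, Bcl3, Nfkbie, Sesn2 and Tigar were not followed singly through the alternatives. Differences near 0 that were not called changed sign when some single library was left out for Tnfrsf1b at day 1 of knockdown, Tnfrsf10b over days in siCtrl cells, and the interactions of Tnfrsf1a, Tnfrsf1b and Tnfrsf10b, that of Tnfrsf1a also with a minimum of 10 counts in each library and that of Tnfrsf1b with no filter on low counts. The cause of the changes given here was not tested. Leaving out 1 library at a time moved the list genes called higher at day 1 of knockdown between 2 (without siPRMT1 replicate 2) and 13 (without siCtrl replicate 3), against 8 with all libraries, and the NF-kB targets among them between 2 and 6. For the interaction, it moved the list genes called higher between 3 and 8, against 6, and called lower between 5 and 12, against 9, the NF-kB targets called higher between 1 and 2 and lower between 1 and 3, and the members called lower between 0 and 1. That member was Tnfrsf12a, which was also the 1 member called lower with DESeq2, with RLE size factors, with a minimum of 10 counts in each library and with no threshold on the fold change. The minimum of 10 counts left 1 NF-kB target with a higher interaction, against 2. With no filter on low counts, 10 list genes were called higher for the interaction and 2 members for day 3 against day 1 in siCtrl cells, of which Ngfr had at most 3 counts in any library. With no threshold on the fold change, 1 member was called higher at day 1 of knockdown and 3 list genes lower, 14 list genes higher and 10 lower at day 3 with 1 NF-kB target among the latter, and 10 list genes higher for the interaction. Same-numbered libraries did not deviate together in every pair (correlations of -0.17, 0.41 and 0.47 at day 1, 0.49, 0.33 and -0.15 at day 3, and 0.49, -0.33 and 0.16 over days in siCtrl). With 3 libraries in a group, such values cannot settle whether the numbers pair the samples, which is not known. With a replicate block, 9 list genes were called higher at day 1, against 8, and the counts of members called did not change. In the comparisons that named them, single list genes lost their call 27 times when 1 library was left out and 2 times under other alternatives. Of the 6 members tested, Fas had the fewest counts, at 136 to 886 per library.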
